A study of Mus musculus with 6 samples.

Results

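Chemokines and chemokine receptors were examined in cortical bone tubes of mouse femur and tibia, which hold osteocytes in their own matrix after the marrow was flushed out and the surface cells were digested away. The set was defined by gene symbol and holds the CC, CXC, CX3C and XC ligands, their receptors and the atypical receptors *Ccrl1* and *Cmkor1*, in all 75 of 45281 probes and 54 of 31508 gene symbols. The mice were C57BL6, 3 months old and of no stated mutant genotype, and each preparation pooled about 10 bones from 4-5 mice. Control tubes received no hormone and PTH tubes received Pth 1-34 at 250 nM, both for 24 hours after an overnight culture in medium with fetal calf serum. There were 3 arrays of each kind, and the labels number them 1 to 3 without saying whether the preparations were separate cultures, so p-values measure the spread between these arrays, which may be technical.

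Chemokines are small secreted proteins that guide leukocytes and progenitor cells along a gradient. They bind receptors coupled to inhibitory G proteins, while atypical receptors take chemokines up without that signal. The families are named by the spacing of the first cysteines, CC for adjacent cysteines and CXC for cysteines with a residue between them, and receptors take the name of the family they bind. In bone, stromal *Cxcl12* holds blood-forming cells in the marrow through *Cxcr4*, monocyte-attracting CC chemokines such as *Ccl2* bring in precursors that can become osteoclasts, and osteoclasts themselves make CC chemokines such as *Ccl9*.

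The bases just before the transcription start are shown for 6 of the genes that the results turn on. Of these 3, *Ccl9*, *Ccl6* and *Ccl3*, lie next to one another among the protein-coding genes of chromosome 11 and differed in direction. *Ccl25* was called higher with PTH, and *Cxcl1* came closest to a call among the other genes with higher means. For *Cxcl12* a probe other than its brightest was called lower, while the gene, by its brightest probe, was not called. The sequences are those of RefSeq for build GRCm38.p6 and cover the 250 bases before the start, read 5′ to 3′ on the strand of the gene. Of the 12 genes whose promoters were looked up, 8 had an entry in the RefSeq table. Capitals mark a match on either strand to one of 4 motifs, GGG and TTTCC set 2 bases apart for NF-kB, TGACGTCA for the full cAMP response element, TGACG for its core, which lies within the full element, and TATAAA for the TATA box. The entry of *Ccl25* is the second of 2 start sites, and the first held none of the motifs.
Ccl9, chr11:83578637-83578886, minus strand: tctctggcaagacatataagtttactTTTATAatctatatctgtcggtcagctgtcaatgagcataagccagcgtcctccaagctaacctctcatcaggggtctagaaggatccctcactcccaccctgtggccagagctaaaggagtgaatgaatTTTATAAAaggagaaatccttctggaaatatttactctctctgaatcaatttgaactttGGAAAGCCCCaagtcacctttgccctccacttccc
Ccl6, chr11:83593088-83593337, minus strand: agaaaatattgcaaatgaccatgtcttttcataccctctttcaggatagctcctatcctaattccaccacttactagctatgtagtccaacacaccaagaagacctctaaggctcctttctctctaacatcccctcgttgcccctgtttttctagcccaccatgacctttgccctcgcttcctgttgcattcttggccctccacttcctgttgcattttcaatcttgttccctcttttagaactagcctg
Ccl3, chr11:83649379-83649628, minus strand: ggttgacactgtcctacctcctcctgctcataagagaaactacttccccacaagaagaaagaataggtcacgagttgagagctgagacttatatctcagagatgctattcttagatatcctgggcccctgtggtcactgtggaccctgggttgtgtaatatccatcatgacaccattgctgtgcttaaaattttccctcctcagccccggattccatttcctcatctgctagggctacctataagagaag
Cxcl1, chr5:90890995-90891244, plus strand: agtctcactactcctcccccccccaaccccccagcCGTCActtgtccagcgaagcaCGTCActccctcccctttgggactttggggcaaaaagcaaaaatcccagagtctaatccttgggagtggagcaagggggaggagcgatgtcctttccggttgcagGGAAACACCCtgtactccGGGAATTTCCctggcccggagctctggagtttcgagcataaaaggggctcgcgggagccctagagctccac
Ccl25, chr8:4349338-4349587, plus strand: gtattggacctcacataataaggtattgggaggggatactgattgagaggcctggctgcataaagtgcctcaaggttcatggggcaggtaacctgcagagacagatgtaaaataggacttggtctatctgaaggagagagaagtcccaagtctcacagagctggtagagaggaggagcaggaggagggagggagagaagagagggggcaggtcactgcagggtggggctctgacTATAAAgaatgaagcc
Cxcl12, chr6:117168285-117168534, plus strand: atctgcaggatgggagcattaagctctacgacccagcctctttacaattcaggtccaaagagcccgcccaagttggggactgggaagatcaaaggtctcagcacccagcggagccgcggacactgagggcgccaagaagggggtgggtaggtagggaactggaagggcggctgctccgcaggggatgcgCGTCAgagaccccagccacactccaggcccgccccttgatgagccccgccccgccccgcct

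In the upstream bases of *Cxcl1* the NF-kB letters matched 2 times, with the nearer match from 71 to 62 bases before the start, and TGACG matched 2 times. *Ccl9* held 1 NF-kB match, from 35 to 26 bases before the start, and TATAAA matched 3 times there, counting both strands. The TATAAA matches at 94 to 89 and 92 to 87 bases before the start overlapped in 1 stretch. *Cxcl12* held 1 match to TGACG and *Ccl25* 1 match to TATAAA, while *Ccl6* and *Ccl3* held no match to any of the 4. The full cAMP response element matched in 0 of the 9 start sites searched. Among all 32851 promoters of the same length in the table, the share with a match was 1.41% for the NF-kB letters, 1.55% for the full element, 17.8% for its core TGACG and 12.4% for TATAAA. A match describes the letters and no binding was measured.

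The arrays gave a signal for each probe together with a detection p-value against the negative controls of the array, and a probe was taken as above background at a detection p under 0.05. Between 34.2% and 38.4% of all probes were above background on an array, and between 26 and 30 of the 75 chemokine probes. Correlations of normalized signals between arrays of one group ran from 0.982 to 0.985 and between groups from 0.976 to 0.984. Signals were corrected for background and quantile normalized, and all levels below are log2 values, with differences taken as PTH minus control. A probe was tested if 3 or more of the 6 arrays had it above background, each gene was represented by its brightest tested probe, and a gene was called at an adjusted p (limma, over the tested probes of the whole array) under 0.05 with a change of at least 1.5-fold. Against their defining genes the tubes held bone cells, with *Col1a1*, *Mepe*, *Ibsp* and *Dmp1* above background on every array. *Sost* was above background on 3 control arrays and 1 PTH array. Genes of neutrophils, macrophages, osteoclasts and endothelium were also above background. Control means of the brightest in these lists were 14.64 for *S100a8*, 14.75 for *Lyz*, 13.05 for *Ctsk* and 9.58 for *Emcn*, beside 13.61 for *Col1a1*. Signals of different probes do not compare as transcript levels.

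Of the 54 genes, 22 could be tested, 9 were above background on 1 or 2 arrays and 23 on none. The CC ligands had 11 of 23 genes tested, the CXC ligands 6 of 12, *Cx3cl1* stood for the other ligands and *Xcl1* was on no array above background. Of 14 receptors 2 could be tested, *Cx3cr1* and *Cxcr4*, each above background on all 6 arrays, and of the 3 atypical or receptor-like genes 2, *Ccrl1* and *Cmkor1*. The receptors *Ccr1*, *Ccr2*, *Ccr3*, *Ccr4*, *Ccr6*, *Ccr8*, *Ccr9*, *Cxcr3*, *Cxcr6* and *Xcr1* were above background on no array, as were the ligands *Ccl1*, *Ccl8*, *Ccl21a*, *Ccl21b*, *Ccl21c*, *Ccl22*, *Ccl26l*, *Ccl28*, *Cxcl5*, *Cxcl11*, *Cxcl13* and *Cxcl15*. *Ccl17*, *Ccl19*, *Ccl20*, *Ccl24*, *Cxcl2*, *Cxcl9*, *Ccr1l1* and *Ccrl2* reached background on 1 array with their best probe and *Ccr7* on 2. A probe below background sets no level, and no fold change is given for any of these genes.

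**Figure D1:**
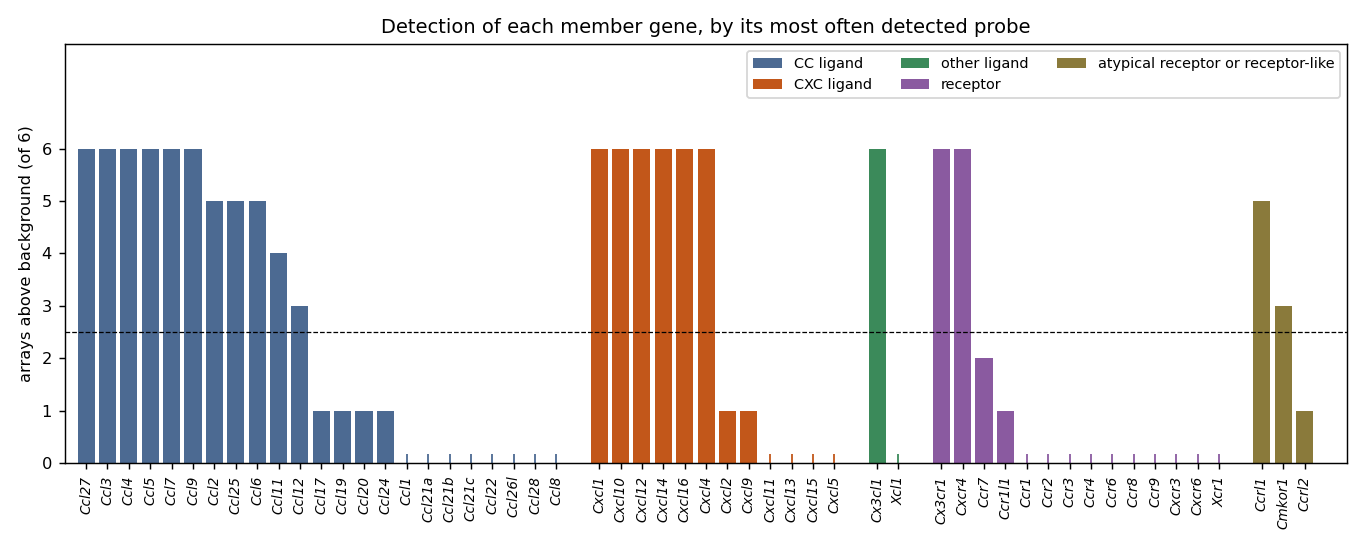
Number of the 6 arrays on which each of the 54 genes was above background (y axis), for the probe of the gene detected most often, grouped and coloured by class, with small ticks for genes at 0. The dashed line separates the 22 genes that could be tested, detected on at least 3 arrays, from the others, and most receptors stand at 0.

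With PTH 2 of the 22 tested genes rose, *Ccl9* and *Ccl25*, and 0 fell at an adjusted p under 0.05 (limma). Over all 11979 genes tested 0.685% were called higher and 1.04% lower, beside 9.09% and 0% of these genes, and 1.73% were called in all. At an unadjusted p under 0.05 (limma) 4 of the genes were higher and 6 lower, where 7.51% and 7.39% of all genes were. By the methods' t-test on the same values, 4 of the genes were higher and 3 lower at that limit with the 1.5-fold minimum, where 506 of the 11979 genes passed in either direction. After Benjamini-Hochberg adjustment of that test 0 of the genes and 68 of all genes passed. The paper lists that test among its general statistics. For these arrays the paper used the differential expression score of GenomeStudio after quantile normalization, and that score was not repeated here. The groups did not overlap for 4 genes with higher PTH values, *Ccl9*, *Ccl25*, *Cxcl1* and *Ccl5*, and for 6 with lower PTH values, *Ccl3*, *Ccl6*, *Ccl2*, *Ccl7*, *Ccl4* and *Cxcl4*. Across all genes tested the groups did not overlap in the higher direction for 11.1% and in the lower direction for 10.8%. These are normalized values, and in the signals as deposited the groups of *Ccl5*, *Ccl2*, *Ccl7*, *Ccl4* and *Cxcl4* overlapped. The median difference over the 22 genes was -0.05, from -0.94 for *Ccl6* to 0.88 for *Ccl25*, beside 0.01 over all genes. With any 1 array left out neither *Ccl9* nor *Ccl25* passed, and 0 of the genes were called.

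**Figure D2:**
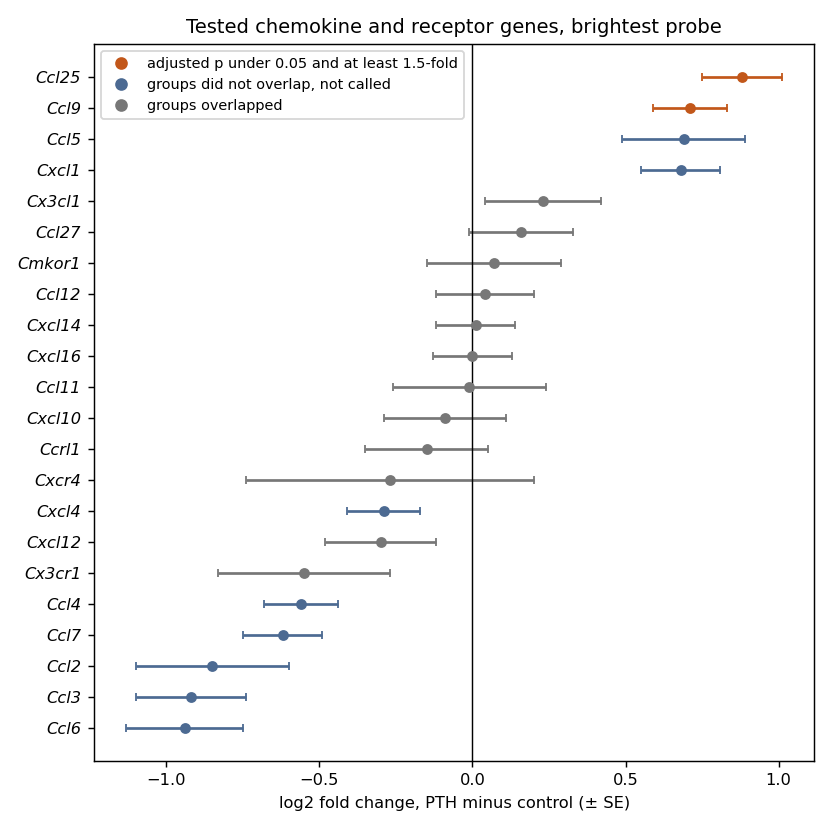
Log2 fold change of PTH against control (x axis, points with bars of 1 SE, 3 arrays in each group) for the brightest probe of each of the 22 tested genes, in order of change. *Ccl25* and *Ccl9* stand at the high end as the 2 called genes, while the 6 lower genes with groups that did not overlap run from -0.29 for *Cxcl4* to -0.94 for *Ccl6*.

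*Ccl9*, a macrophage and osteoclast chemokine that signals through *Ccr1*, had normalized signals of 11.09, 11.03 and 10.90 in the control tubes and 11.80, 11.65 and 11.68 in the PTH tubes. The 3 PTH values all lay above the control values. They also did so as deposited, where the linear signals were 1849.2, 2162.8 and 1969.1 for control and 3019.1, 3393.3 and 4605.1 for PTH. The rise was 1.63-fold, or 0.71 on the log2 scale (SE 0.12), with an adjusted p of 0.0349 (limma). Its adjusted p (limma) ranged from 0.0852 to 0.135 with 1 array left out and was 0.178 under median scaling, where the log2 fold change was 0.85. Of 8 other limma fits with all arrays kept, *Ccl9* passed in 6, with the lowest adjusted p, 0.000113, under quantile normalization only. *Ccr1*, the receptor for *Ccl9*, has 1 probe, which was above background on no array.

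*Ccl25* attracts T cell precursors to the thymus and lymphocytes to the gut through *Ccr9*. Its tested probe had normalized signals of 5.15, 5.15 and 4.95 in the control tubes and 6.08, 5.89 and 5.90 in the PTH tubes, without overlap. It was near background, which it passed in 2 of the control and 3 of the PTH tubes, with deposited signals from 117.8 to 141.4 in control and from 146.0 to 180.3 with PTH. The rise was 1.83-fold, or 0.88 on the log2 scale (SE 0.13), with an adjusted p of 0.0211 (limma). The size depended on the background correction, since the difference was 0.30 when signals were only quantile normalized and 0.50 when the offset was 50 in place of 16, and neither passed both limits. The other probe of *Ccl25* was above background on 1 array and was not tested, and *Ccr9* was above background on no array.

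Of the other genes with higher means, *Cxcl1*, a ligand of *Cxcr2* that attracts neutrophils, came closest to the limit. Its signals were 6.14, 6.17 and 6.19 in the control tubes and 7.05, 6.80 and 6.70 in the PTH tubes, with control arrays that differed by less than the PTH arrays did. The difference was 0.68 (SE 0.13) with an adjusted p of 0.0557 (limma). Of 8 other limma fits with all arrays kept, *Cxcl1* passed in 3. These were cyclic loess (adjusted p = 0.0475), a detection p under 0.01 on all 6 arrays (0.0178) and probes averaged (0.0389). *Cxcl1* has 1 probe, so averaging changed only the fit and the adjustment, which then ran over genes. *Cxcl1* did not pass under median scaling (0.314), with the replicate number as a block (0.119) or with any 1 array left out. *Ccl5*, which attracts T cells and monocytes, had 5.25, 5.95 and 5.90 in the control tubes and 6.43, 6.24 and 6.48 in the PTH tubes. The difference of *Ccl5* was 0.69 (SE 0.20, limma adjusted p = 0.17), and control replicate 1 lay well below the other 2.

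**Figure D3:**
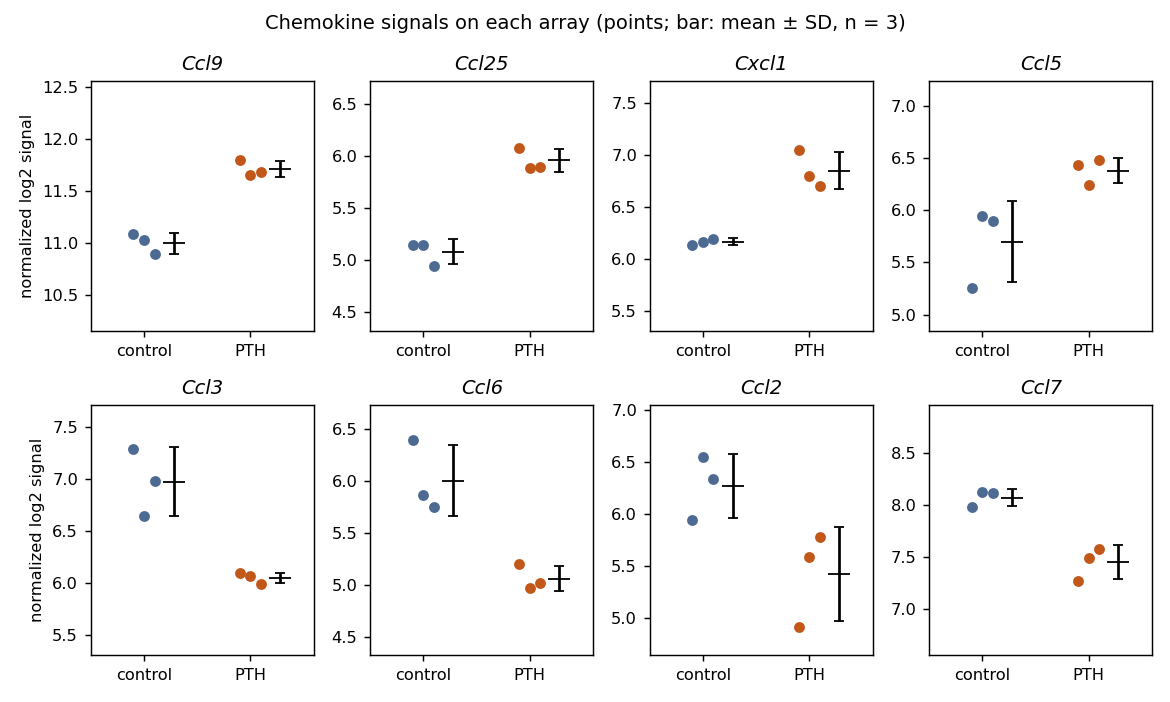
Normalized log2 signal (y axis, the same span in every panel) on each of the 3 control and 3 PTH arrays, with the mean and SD beside the points, for the 8 genes whose groups did not overlap and differed by at least 1.5-fold. The upper row holds genes higher with PTH and the lower row genes lower with PTH, and the lowest PTH value of *Ccl2*, 4.92, stands apart from the other 2.

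Among ligands with lower means, *Ccl3* and *Ccl4*, which attract monocytes and T cells, are neighbours in the genome. *Ccl3* had 7.29, 6.64 and 6.98 in the control tubes and 6.10, 6.07 and 5.99 in the PTH tubes, a difference of -0.92 (SE 0.18, limma adjusted p = 0.0518). Its control arrays were spread over more than the PTH arrays, and the groups did not overlap. Of 8 other limma fits with all arrays kept, *Ccl3* passed in 4. These were the offset at 50 (adjusted p = 0.0143), cyclic loess (0.0449), a detection p under 0.01 on all 6 arrays (0.0166) and probes averaged (0.04). *Ccl3* has 1 probe, so averaging changed only the fit and the adjustment, which then ran over genes. *Ccl3* did not pass under median scaling (0.214), with the replicate number as a block (0.0965) or with any 1 array left out. The brightest probe of *Ccl4* gave 7.45, 7.53 and 7.54 in control and 7.05, 6.89 and 6.91 for PTH, a difference of -0.56 (SE 0.12, limma adjusted p = 0.0732). Its other probe differed by -0.82 (SE 0.19, limma adjusted p = 0.097) and was above background on 1 PTH array. All 3 tested probes of the pair thus had PTH arrays below the control arrays, and none passed.

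*Ccl6*, a mouse CC chemokine of myeloid cells, had 6.39, 5.86 and 5.75 in the control tubes and 5.20, 4.97 and 5.02 in the PTH tubes, where it was above background on 2. The difference was -0.94 (SE 0.19, limma adjusted p = 0.059). *Ccl2* and *Ccl7*, ligands of *Ccr2* that attract monocytes, are also neighbours. *Ccl2* had 5.94, 6.55 and 6.34 in control and 4.92, 5.59 and 5.78 for PTH, above background on 2 PTH arrays, a difference of -0.85 (SE 0.25, limma adjusted p = 0.175). The brightest probe of *Ccl7* had 7.98, 8.12 and 8.11 in control and 7.27, 7.49 and 7.58 for PTH, a difference of -0.62 (SE 0.13, limma adjusted p = 0.072). The second probe of *Ccl7* differed by -0.34 (SE 0.21, limma adjusted p = 0.527) and its groups overlapped. *Ccr2*, with 1 probe, was above background on no array.

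On chromosome 11 of the RefSeq table these genes stand in 2 runs of neighbouring protein-coding genes. The first run holds *Ccl2*, *Ccl7*, *Ccl11*, *Ccl12*, *Ccl8* and *Ccl1*, and in this order the first 4 differed by -0.85, -0.62, -0.01 and 0.04 while the other two were not tested. The second run holds *Ccl5*, *Ccl9*, *Ccl6*, *Ccl3* and *Ccl4*, which differed by 0.69, 0.71, -0.94, -0.92 and -0.56. All 5 genes of the second run had groups that did not overlap, higher in the first 2 and lower in the other 3. Over all genes tested 11.1% did not overlap in the higher and 10.8% in the lower direction. *Ccl9* was the single call among the 5. *Ccl11*, an eosinophil chemokine, and *Ccl12*, a monocyte chemokine, were near background, on 4 and 3 arrays above it, and both had groups that overlapped. *Ccl27*, a skin chemokine, differed by 0.16 (SE 0.17, limma adjusted p = 0.724).

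*Cxcl12* was represented by 5 probes, of which 3 were tested and 2 were above background on no array. The brightest probe had 10.16, 10.11 and 10.64 in the control tubes and 9.94, 9.87 and 10.20 in the PTH tubes. Its groups overlapped through PTH replicate 3, and the difference was -0.30 (SE 0.18, limma adjusted p = 0.504). It was -0.13 without control replicate 3. A second probe had 8.01, 8.20 and 7.83 in control and 7.29, 7.46 and 7.18 for PTH, a difference of -0.70 (SE 0.15, limma adjusted p = 0.068). The third had 7.96, 7.90 and 7.66 in control and 7.02, 6.94 and 7.20 for PTH, a difference of -0.78 (SE 0.14, limma adjusted p = 0.0406), and was the 1 chemokine probe of 29 tested that was called lower, beside 2 called higher. Over the 16214 probes tested on the array 0.993% were called lower and 0.617% higher. With the 3 tested probes averaged *Cxcl12* differed by -0.60 and passed, at an adjusted p of 0.0312 (limma). Which transcripts each probe reads was not examined, since probe sequences were not used. *Cxcr4*, its signalling receptor, had 5.60, 6.78 and 6.68 in control and 5.17, 6.16 and 6.92 for PTH. In both groups the array numbered 1 was lowest, and the difference of -0.27 (SE 0.47, limma adjusted p = 0.846) was smaller than the spread within either group. *Cmkor1*, now *Ackr3*, the atypical receptor for *Cxcl12*, was above background on 3 arrays and differed by 0.07 (SE 0.22, limma adjusted p = 0.921).

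**Figure D4:**
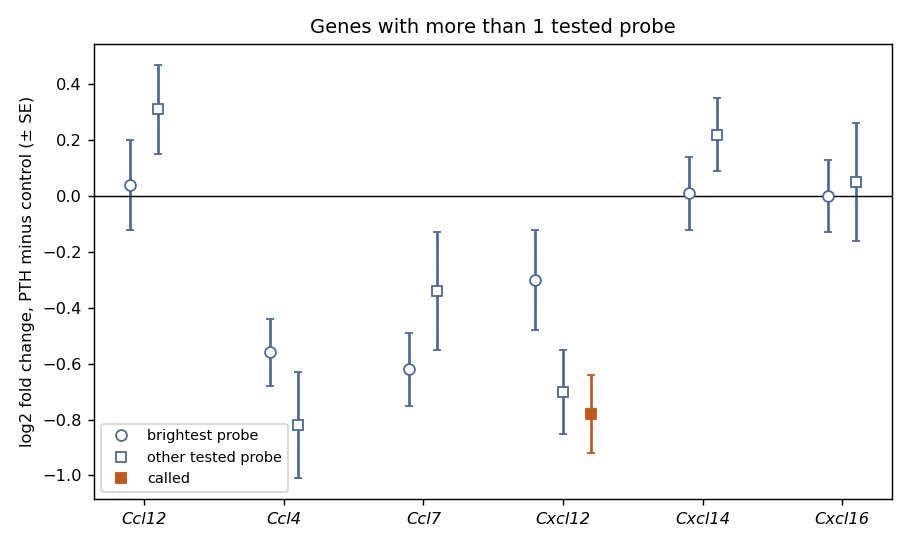
Log2 fold change of PTH against control (y axis, bars of 1 SE, 3 arrays in each group) for each tested probe of the 6 genes with more than 1. Circles mark the brightest probe and squares the others, and the filled square is the called probe of *Cxcl12*, at -0.78 beside -0.30 for the brightest probe.

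The remaining CXC ligands differed by less. *Cxcl4*, now *Pf4*, a chemokine of platelets and megakaryocytes, had 11.13, 11.19 and 11.34 in the control tubes and 10.88, 10.93 and 10.97 in the PTH tubes, a difference of -0.29 (SE 0.12, limma adjusted p = 0.319) without overlap. *Cxcl14*, made by epithelial and stromal cells, had 10.40, 10.26 and 10.44 for control and 10.31, 10.26 and 10.55 for PTH, and its groups overlapped. The difference of *Cxcl14* was 0.01 with a 95% interval from -0.30 to 0.32, and that of its second probe 0.22 (SE 0.13, limma adjusted p = 0.486). *Cxcl16*, a membrane-bound ligand of *Cxcr6*, had 8.89, 8.79 and 8.89 in control and 8.91, 8.70 and 8.95 for PTH, a difference of 0.00 with a 95% interval from -0.29 to 0.29. The arrays do not tell changes inside these intervals from 0. *Cxcl10*, an interferon-induced ligand of *Cxcr3*, differed by -0.09 (SE 0.20, limma adjusted p = 0.879).

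*Cx3cr1*, a receptor of monocytes and macrophages, had 6.66, 6.83 and 6.38 in the control tubes and 5.60, 6.70 and 5.92 in the PTH tubes. It differed by -0.55 (SE 0.28, limma adjusted p = 0.416) with PTH replicate 2, at 6.70, inside the control range. Without PTH replicate 2 the difference was -0.86 and without PTH replicate 1 it was -0.32, and neither passed. Its ligand *Cx3cl1* differed by 0.23 (SE 0.19, limma adjusted p = 0.637). *Ccrl1*, now *Ackr4*, which takes up CC chemokines, differed by -0.15 (SE 0.20, limma adjusted p = 0.795).

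Other genes of the chemokine system, listed under symbols outside the rule, gave 5 tested genes of 10 on the array, with 0 called in either direction (limma), and a median difference of -0.17. *Il8rb*, now *Cxcr2* and the receptor for *Cxcl1*, went from 5.88 ± 0.26 (SD, n = 3) to 5.09 ± 0.06 (SD, n = 3), a difference of -0.78 (SE 0.16, limma adjusted p = 0.0591). *Ppbp*, a platelet chemokine, differed by -0.57 (SE 0.15, limma adjusted p = 0.129), *Ccbp2*, an atypical receptor for CC chemokines, by 0.46 (limma adjusted p = 0.282), *Cklf* by 0.18 and *Rarres2* by -0.17. *Blr1*, *Gpr2* and *Cmklr1* were above background on no array. Of the genes that carry the receptor signal 15 were tested and 0 were called, with a median of -0.10, and *Gnai3*, *Rgs13*, *Rgs14* and *Rgs18* were above background on no array. *Gnai2*, the brightest of these by its probe, differed by -0.32 (SE 0.11, limma adjusted p = 0.239). Of 17 tested inducers and NF-kB genes and 10 tested interferon response genes 0 were called, with medians of 0.04 and 0.14, and *Il1a*, *Ifit1* and *Oas1a* were above background on no array. *Tnfaip3*, an inhibitor of NF-kB signalling, differed by 0.78 (SE 0.26, limma adjusted p = 0.218) and the cytokine *Il1b* by -0.63 (SE 0.17, limma adjusted p = 0.132).

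Marker genes of other cells moved beside these values. Of the neutrophil markers 8 of 9 on the array were tested and 5 were called lower. Their summed background-corrected signal was 54234 to 55082 on the control arrays and 34671 to 39367 on the PTH arrays. Of 10 macrophage markers, all tested, 0 were called, and the summed signal of 34215 to 36294 in control overlapped that of 32271 to 35075 with PTH. Without overlap, 5 of that list were lower with PTH, *Emr1*, *Mrc1*, *Ms4a7*, *C1qa* and *C1qb*. *Cd14* was higher without overlap, with a difference of 0.39, while *Csf1r* and *Cd68* differed by -0.04 and -0.02. The shares without overlap over all genes tested were 10.8% lower and 11.1% higher. Of the osteoclast markers 4 of 6 were tested and 3, *Acp5*, *Mmp9* and *Oscar*, were called higher. Their summed signals were 11729 to 13237 in control and 15811 to 20417 with PTH, although *Calcr* and *Atp6v0d2* were above background on no array. Of 10 tested osteocyte and osteoblast markers 2 were called lower, with sums of 35528 to 37743 in control and 25248 to 27797 with PTH. In that list 7 were lower and 1 higher without overlap. The higher one, *Gp38*, differed by 0.70 (SE 0.14, limma adjusted p = 0.056), and *Col1a2* differed by 0.01. Reticular stroma markers, cells known for *Cxcl12*, had 5 of 7 tested and 0 called, with sums of 1245 to 1440 in control and 1426 to 1628 with PTH, and *Lepr* and *Kitl* above background on no array. Endothelial markers had 6 of 6 tested and 0 called, and markers of T cells, which *Ccl25* attracts, had 1 of 7 tested, with *Cd3d*, *Cd3e*, *Cd3g*, *Cd4* and *Cd8a* above background on no array. Red cell markers had 2 of 6 tested and both were called lower, with sums of 8544 to 9984 in control and 2334 to 2602 with PTH, and of the mast cell markers 2 of 6 were tested. *Mcpt1* was called higher, but it was above background on 0 control and 3 PTH arrays and so was tested only through the PTH arrays. *Kit* differed by -0.37 with PTH arrays below the control arrays and was not called. *Mcpt2*, *Mcpt4* and *Cpa3* were above background on no array. The part of these cells in the chemokine values was not tested, and in RNA from whole tubes fewer cells of a type and less RNA per cell cannot be told apart.

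**Figure D5:**
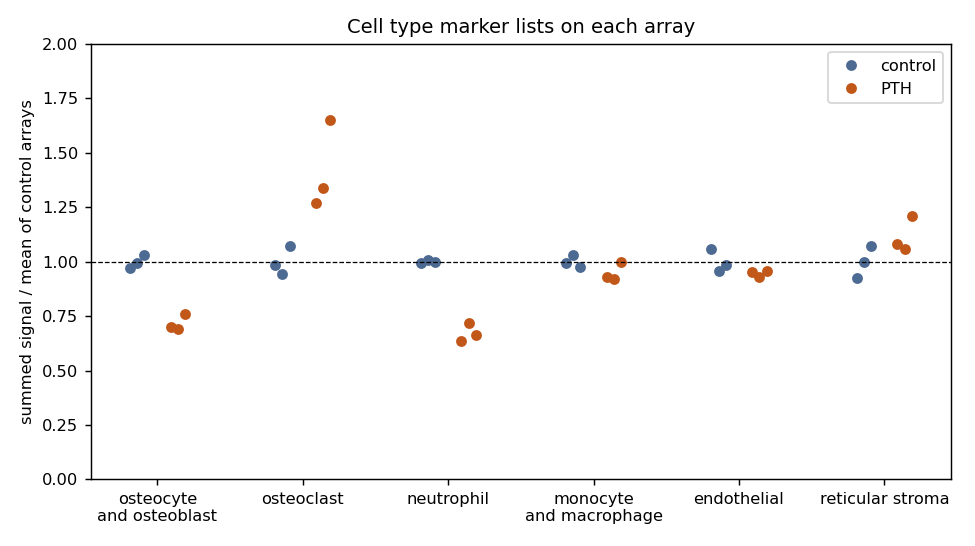
Summed background-corrected signal of each marker list on each array, as a ratio to the mean of the 3 control arrays (y axis, from 0), for control (blue) and PTH (orange) arrays. The neutrophil and bone cell lists lie lower on all 3 PTH arrays, the osteoclast list lies higher, and the macrophage, endothelial and reticular stroma lists overlap.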

How the data were processed

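Bone tube RNA was labelled as cRNA and hybridized to a mouse Illumina bead array. The authors deposited 1 table of linear signal intensity per probe and array, not normalized and not background subtracted, with a detection p-value, also as deposited, against the negative controls. The submitters' processing notes name GenomeStudio, with version and annotation not given in the sources used here. Within each array the detection p followed the signal of its own column, with at most 3 breaks in order. The columns of per-sample values left unused number 0.

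Background was corrected by normexp as in neqc, with the negative controls inferred from the detection p-values, then 16 was added and signals were quantile normalized and log2 transformed (limma 3.58.1, R 4.3.3). Probes above background (detection p under 0.05) on at least 3 of 6 arrays were tested with lmFit and eBayes, and Benjamini-Hochberg adjustment ran over all 16214 probes. Precision is limited by the 3 arrays in each group, for which the smallest exact permutation p of 1 gene is 0.1. Summed marker signals are 2 to the normalized log2 value, less the offset. The procedure was tested on simulated arrays.

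Every tested member is named, apart from a gene that is not reported here and enters no count of members. Array values are given for members called, without overlap at 1.5-fold or more, or among the 5 brightest, and for *Ccl4*, *Cxcr4* and *Cx3cr1* after their values were seen. Other genes were to be named only where called, above background on no array or the brightest of a list, and the remaining ones named were chosen after their values were seen. Signals of different probes are not comparable as transcript levels. The members and lists were chosen with earlier results of these data known. Of the 54 symbols 49 are current in RefSeq (GRCm38.p6) and 5 are older names. The atypical receptor *Darc* of the rule is not among the symbols matched, and its older symbol *Dfy*, which is on the array, lies outside the rule and was not used. Alternatives were other normalizations and offsets, filters, thresholds and probe rules, the methods' t-test, the replicate number as a block and each array left out, with normalization repeated.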

Additional observations from a re-analysis of the deposited data

How the results depend on the processing

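The 2 calls, *Ccl9* and *Ccl25*, did not pass with any 1 array left out, where the log2 fold change was 0.66 to 0.75 for *Ccl9* and 0.80 to 0.93 for *Ccl25*. Genes called higher numbered 1 with quantile normalization only, 1 at an offset of 50, 0 under median scaling and by the methods' t-test, and 3 under cyclic loess, with probes averaged and at an adjusted p under 0.1. Genes called lower numbered 1 at an offset of 50 and under cyclic loess, 2 with a detection p under 0.01 on all 6 arrays, 4 with probes averaged, 3 at an adjusted p under 0.1 and 1 when any tested probe counted, a setting chosen after seeing the data, against 0. Averaging ran the adjustment over 11979 genes, and *Ccl3*, *Ccl6* and *Cxcl1* have 1 probe each. With 1 array left out in turn the count of members called ranged from 0 to 0 in either direction. In these fits 18 to 32 genes of the array were called higher and 28 to 48 lower, against 82 and 125 with all arrays.

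With the replicate number as a block 0 members were called higher, with adjusted p-values (limma) of 0.0852 for *Ccl9* and 0.0663 for *Ccl25*, and 44 genes in all. The labels do not pair the arrays by number, and 2 of 6 arrays were closest to the array of their own number. Deviations of same-numbered arrays correlated at 0.07, 0.06 and 0.27, and of differently numbered arrays at -0.14 to 0.07. Control 3 and PTH 3 correlated at 0.27 with each other and at -0.13 or -0.14 with the remaining arrays of the other group. Probes above background rose with the number, at 15758, 16451 and 17369 for control and 15504, 16352 and 17374 for PTH. Whether same-numbered arrays shared a batch was not tested.

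Median scaling moved the median of all genes to 0.12 and the higher share of all calls from 39.6% to 60.6%. Relative to that median *Ccl9* was at 0.73, *Ccl25* at 0.80 and *Ccl3* at -0.94. Differences that changed sign were all of genes that did not pass. *Ccl11* was at 0.01 with quantile normalization only, 0.04 under median scaling, 0.02 under cyclic loess, and from -0.26 to 0.25 with 1 array left out. *Cxcl14* was at -0.02 under cyclic loess and from -0.08 to 0.06 with 1 array left out. With 1 array left out *Ccl12* ranged from -0.06 to 0.16, *Ccrl1* from -0.31 to 0.02, *Cxcr4* from -0.66 to 0.19, *Cmkor1* from -0.10 to 0.31 and *Cxcl10* from -0.24 to 0.05. The cause was not tested. Signal over background limits the genes above it on fewer than 6 arrays, which number 7 of the 22 tested.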
